A study of Ovis aries with 49 samples.

Results

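CSMD2, HINT2 and ENDOG are 3 genes whose transcripts stood higher in perirenal fat of lambs at 7 days of age than in 4 other fat depots. They were chosen by that difference, so their levels at 7 days are given as a description, and tests were made only on the samples taken at 28 days. Results of both ages were known when the genes were proposed, so the tests at 28 days are not fully independent of the choice. Each gene is read by 1 of the 10273 probe sets in the table, of which 9780 carry a single gene symbol. RNA of epicardial, omental, perirenal, sternal and subcutaneous adipose tissue was hybridised to arrays with probes for human transcripts, so weak binding of sheep RNA to a human probe and low expression cannot be told apart. There were 24 arrays at 7 days and 25 at 28 days, in groups of 5 apart from the subcutaneous group at 7 days, which had 4. Per the labels the lambs were sex-matched twins, with 1 of a pair sampled at each age and the groups defined by depot and age. Every title also carries the letter C, which the labels do not explain. The study included a maternal diet with added canola oil beside a control diet, and the labels do not state the diet of these samples. A free-text note in the labels gives another age range, and the age field and titles were followed here. Letters stand for the number at the end of each title, the earlier age using A to G and the later age H to O. No number occurs at both ages, and the labels do not say that a number is an animal, so the spread behind the p-values is that of the samples and may be technical.

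Perirenal fat of the newborn lamb is a brown fat depot, in which mitochondria with uncoupling protein 1 (UCP1) turn the oxidation of fuel into heat, and over the first weeks of life it takes on the character of white, lipid-storing fat. HINT2 is a mitochondrial enzyme of the histidine triad family, whose members hydrolyse bonds between nucleotides and other groups. ENDOG is an endonuclease that is encoded in the nucleus and kept in mitochondria, known for cleaving DNA once released during cell death and for a role in the upkeep of mitochondrial DNA. CSMD2 is a large membrane protein built of CUB and sushi domains, modules shared with complement regulators, and is best known from neurons. In tissue samples such as these, fewer cells of a type and less RNA per cell cannot be told apart.

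The deposited values are log2 expression from GCRMA, and a difference of 1 is a doubling. HINT2, on a probe set (224415_s_at) whose suffix marks possible matches to more than 1 transcript, had signal on every array, from 6.88 to 9.59. CSMD2 (1557143_at) and ENDOG (204824_at) were near the bottom of the scale on most arrays. CSMD2 took its most frequent value, 2.64, on 15 arrays and lay more than 0.1 above it on 23 of 49. ENDOG took its most frequent value, 3.13, on 19 arrays and was more than 0.1 above it on 11. Values at or under these levels were not ranked, and the size of a difference measured against a group that sits there is uncertain.

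The labelled tissue was checked on 11 measured adipocyte markers. CD36, a fatty acid transporter, DGAT2, which completes triglyceride synthesis, and SCD, a fatty acid desaturase, had group means above 4 in all 10 groups, with lowest group means of 8.61, 8.86 and 4.81. The other 8 (FABP4, LPL, CIDEC, PPARG, LIPE, PNPLA2, GPD1 and AGPAT2) stayed below 4 in every group mean. Muscle transcripts were present outside perirenal fat: creatine kinase M (CKM) was above 4 on 5 epicardial, 1 sternal and 3 subcutaneous arrays at 7 days and on 4, 3 and 2 at 28 days, and on no perirenal or omental array. Sternal arrays at 28 days had a mean over all probe sets of 3.25 to 3.30, against 3.38 to 3.44 for the other depots of that age.

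At 28 days CSMD2 was still higher in perirenal fat, HINT2 was higher than in sternal fat only among the 4 depots, and ENDOG had no difference that passed the test. With limma, perirenal fat exceeded the mean of the other 4 depots by 1.09 for CSMD2 (SE 0.17, adjusted p = 0.000661), which is 2.13-fold. For HINT2 the difference was 0.27 (SE 0.11, adjusted p = 0.273 in limma), and for ENDOG it was -0.03 (SE 0.11, adjusted p = 0.936 in limma). So 1 of the 3 genes passed as higher, where 2.87% of all probe sets did and 0.487% passed as lower. By size of difference CSMD2 was number 9 of 10273.

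CSMD2 read 4.47, 4.20, 4.41, 3.51 and 3.44 on the perirenal arrays I, J, K, M and N at 28 days (mean 4.01 ± 0.50, SD, n = 5). Epicardial arrays I, J, L, N and O gave 4.20, 3.10, 3.31, 2.94 and 3.36 (3.38 ± 0.49, n = 5). The other depots lay lower, from 2.64 to 2.95 in sternal, 2.64 to 3.20 in omental and 2.64 to 3.38 in subcutaneous fat, where only replicates M and H, respectively, exceeded 3 in the latter 2. The perirenal arrays fell into 3 above 4 and 2 near 3.5, and the epicardial array I reached into their range, so no gene of the 3 had every perirenal array above every other array, a pattern that 0.117% of all probe sets showed. Against single depots the CSMD2 difference passed the test for omental fat (1.25, SE 0.22, limma adjusted p = 0.00191), sternal fat (1.29, SE 0.22, limma adjusted p = 0.000395) and subcutaneous fat (1.20, SE 0.22, limma adjusted p = 0.00307), where 0.973%, 12.9% and 1.46% of probe sets were called higher. When sternal and subcutaneous arrays showing CKM above 4, called muscle-marked here, were left out, the difference from subcutaneous fat was 1.09 and no longer passed (limma adjusted p = 0.0786).

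Against epicardial fat the CSMD2 difference was 0.63 (SE 0.22, 95% CI 0.17 to 1.08, limma adjusted p = 0.181, with 1.1% of probe sets called higher). That call turned on 1 array: without epicardial replicate I the difference was 0.83 and passed (limma adjusted p = 0.0227). Epicardial replicate I was also the one epicardial array at 28 days without heart muscle transcripts, its mean over 7 heart muscle markers being 2.79 against 6.62 to 8.45 on the other 4. Its mean over 13 neural markers was 3.44, within the 3.32 to 4.25 of those 4, and the part of either tissue in the CSMD2 level was not tested. Epicardial fat, second in order for CSMD2, exceeded sternal fat by 0.67 (SE 0.22, limma adjusted p = 0.0482), with 11.6% of probe sets called. This call was lost when any of 17 arrays was left out, after quantile normalization (0.55) and without the muscle-marked sternal and subcutaneous arrays (0.57). Epicardial fat did not pass against omental fat (0.62, SE 0.22, limma adjusted p = 0.151, with 1.1% of probe sets called) or subcutaneous fat (0.57, SE 0.22, limma adjusted p = 0.195, with 1.55% called). Perirenal and epicardial fat had all 5 arrays more than 0.1 above the most frequent CSMD2 value, and subcutaneous, omental and sternal fat had 2, 1 and 1, so the order of the latter 3 was not read.

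HINT2 read 7.85, 7.89, 7.34, 7.69 and 7.67 on the perirenal arrays I, J, K, M and N at 28 days (7.69 ± 0.22, SD, n = 5). Epicardial arrays I, J, L, N and O gave 7.79, 7.75, 7.82, 7.34 and 7.73 (7.69 ± 0.20, n = 5). Subcutaneous fat ran from 7.19 to 7.60, omental fat from 6.95 to 7.79 and sternal fat from 6.88 to 7.44. Perirenal and epicardial fat thus had the same mean, and all depots overlapped. The perirenal difference passed the test against sternal fat (0.47, SE 0.14, limma adjusted p = 0.0281), the comparison in which 12.9% of all probe sets passed as higher. With quantile normalization, which sets the arrays to 1 distribution, it was 0.23 and did not pass (limma adjusted p = 0.413). It was 0.33 when sternal and subcutaneous arrays showing CKM above 4 were left out (limma adjusted p = 0.344), and the call was also lost without any 1 of perirenal I, J or M or sternal J or N, where the differences stayed between 0.39 and 0.56 over all arrays left out in turn. The differences were 0.00 from epicardial (95% CI -0.29 to 0.30), 0.32 from omental (0.03 to 0.61) and 0.28 from subcutaneous fat (-0.01 to 0.57), with limma adjusted p of 1, 0.329 and 0.430. Epicardial fat also exceeded sternal fat (0.47, SE 0.14, limma adjusted p = 0.0316), a call that did not hold after quantile normalization (0.20, limma adjusted p = 0.485), with the replicate number as a block (0.42, limma adjusted p = 0.138), without the muscle-marked sternal and subcutaneous arrays (0.33, limma adjusted p = 0.355) or without any 1 of epicardial I, J, L or O or sternal J or N. In the order perirenal, epicardial, subcutaneous, omental and sternal, no depot passed against its neighbour.

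ENDOG read 2.90, 3.13, 3.13, 3.05 and 2.76 on the perirenal arrays I, J, K, M and N at 28 days (2.99 ± 0.16, SD, n = 5), at or under its most frequent value. Of the other depots only epicardial fat had arrays more than 0.1 above that value, with 3.78 in replicate J and 3.51 in O. Omental arrays lay between 2.73 and 3.13, subcutaneous between 2.75 and 3.16 and sternal between 2.49 and 3.13. Signal for this probe set was therefore at the bottom of the scale in 4 of the 5 depots. The differences of perirenal fat were -0.32 from epicardial (95% CI -0.62 to -0.03, limma adjusted p = 0.366), -0.03 from omental (-0.32 to 0.27), 0.27 from sternal (-0.03 to 0.57, limma adjusted p = 0.238) and -0.02 from subcutaneous fat (-0.32 to 0.27). None passed. Epicardial fat exceeded sternal fat by 0.59 (SE 0.14, limma adjusted p = 0.00800), but no sternal array and only 2 epicardial arrays lay more than 0.1 above the most frequent value, so most of this difference lies where levels are not ranked. The call was lost after quantile normalization (0.47, limma adjusted p = 0.0622), in the fit of all 10 groups (limma adjusted p = 0.0998) and without the muscle-marked sternal and subcutaneous arrays (0.51, limma adjusted p = 0.140).

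**Figure D1:**
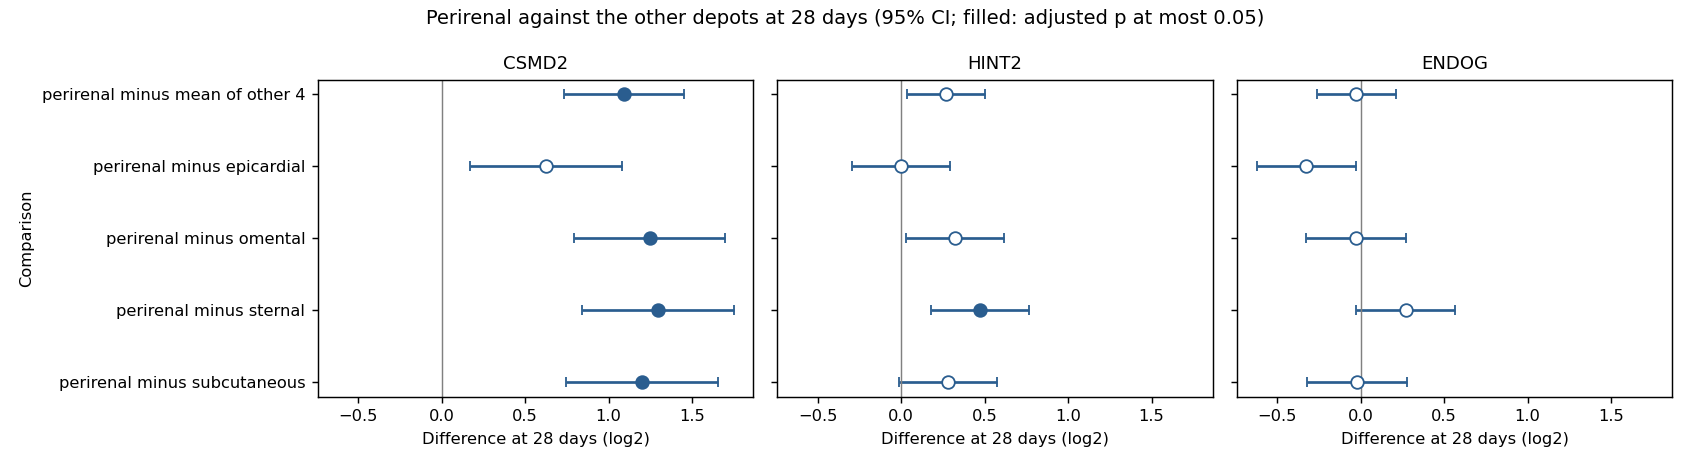
Difference of perirenal fat from the mean of the other 4 depots and from each depot at 28 days (x axis, log2) for CSMD2, HINT2 and ENDOG, with 95% confidence intervals of the limma fit; filled points have an adjusted p of at most 0.05. For CSMD2 the filled points lie at 1.09 or higher and the open one, against epicardial fat, at 0.63, for HINT2 only the point against sternal fat (0.47) is filled, and for ENDOG none is.

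Arrays with the same replicate number could be set side by side at 28 days for 4 of the 5 perirenal arrays. CSMD2 was higher in perirenal fat than on 15 of the 15 arrays of other depots with the same number, with differences from their mean of 0.67 to 1.44. HINT2 was higher than on 14 of 15, with differences of 0.27 to 0.48. The perirenal array without a match was K, which had the lowest HINT2 of the group (7.34). The 15 comparisons reuse 4 perirenal arrays and are not independent. ENDOG was higher than on 6 of 15, and the differences ran from -0.11 to 0.13.

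At 7 days, the age that chose the genes, perirenal fat stood above the mean of the other depots by 1.52 (SE 0.17) for CSMD2, 0.95 (SE 0.13) for HINT2 and 1.55 (SE 0.24) for ENDOG, numbers 5, 26 and 4 of all probe sets by size. At this age 4.58% of probe sets were called higher in perirenal fat and 0.535% lower. CSMD2 and HINT2 had every perirenal array above every other array, as 0.263% of probe sets did, and ENDOG did not. Since these values chose the genes, nothing is read from them.

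CSMD2 at 7 days was 4.66, 4.49, 4.99, 3.48 and 3.44 on the perirenal arrays A, B, C, D and G (4.21 ± 0.71, SD, n = 5). On the 19 arrays of the other depots it ran from 2.49 to 3.22, the highest being epicardial replicate C. The perirenal arrays again fell into a group above 4 and a pair near 3.5. The margin between the lowest perirenal and the highest other array was that between 3.44 and 3.22.

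HINT2 at 7 days was 9.59, 9.07, 9.11, 9.15 and 8.94 on the perirenal arrays A, B, C, D and G (9.17 ± 0.25, SD, n = 5). Sternal fat came next, from 8.40 to 8.88 (8.67 ± 0.21, n = 5), then epicardial fat, from 7.99 to 8.70 (8.48 ± 0.31, n = 5). Omental fat followed with 7.75 to 8.46 (7.95 ± 0.29, n = 5) and subcutaneous fat with 7.35 to 8.06 (7.77 ± 0.31, n = 4). The means of sternal and epicardial fat, and those of omental and subcutaneous fat, differed by less than 1 SD.

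ENDOG at 7 days was 5.50, 4.51, 5.00, 5.44 and 4.57 on the perirenal arrays A, B, C, D and G (5.00 ± 0.47, SD, n = 5). Epicardial arrays A, C, D, E and G gave 4.60, 3.13, 3.70, 5.27 and 5.49 (4.44 ± 1.01, n = 5). All 14 omental, sternal and subcutaneous arrays lay between 3.01 and 3.16. Arrays more than 0.1 above the most frequent value were all 5 perirenal and 4 of the epicardial ones, and the range of the epicardial arrays covered all but the highest perirenal one. The mean over the 7 heart muscle markers was 6.08, 7.31, 8.52, 8.15 and 8.63 on the epicardial arrays A, C, D, E and G, and 2.65 to 2.68 on the perirenal arrays. The part of heart muscle in the epicardial ENDOG level was not tested. In perirenal fat, no heart muscle marker had a mean above 4.

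**Figure D2:**
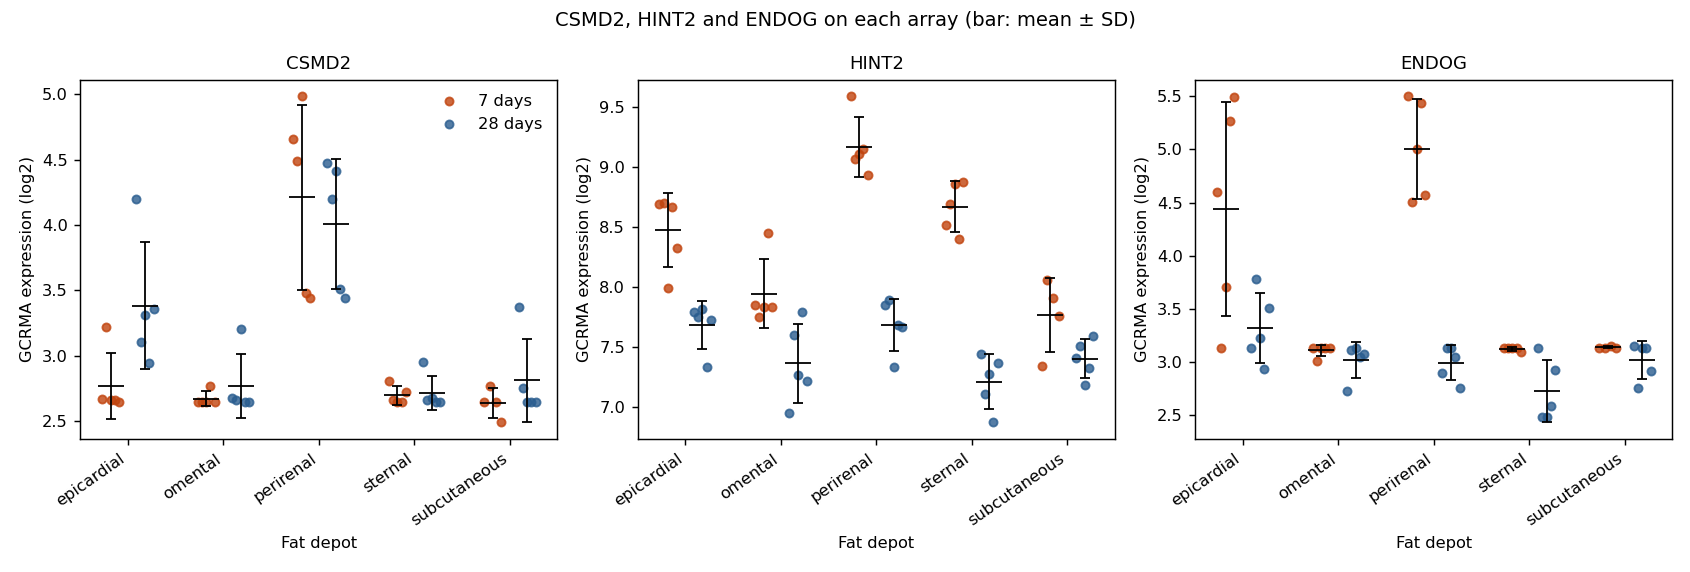
GCRMA expression (y axis, log2) of CSMD2, HINT2 and ENDOG on each array by fat depot (x axis), 7 days in orange and 28 days in blue; horizontal bars are group means and vertical bars ± SD of 5 arrays (4 for subcutaneous fat at 7 days). Perirenal CSMD2 is at 4.21 and 4.01 at the 2 ages, perirenal HINT2 moves from 9.17 to 7.69 and ENDOG from 5.00 to 2.99, and epicardial ENDOG is spread from 3.13 to 5.49 at 7 days.

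Between the ages the 3 genes parted. In perirenal fat the difference of 28 minus 7 days was -0.20 (SE 0.22) for CSMD2, -1.48 (SE 0.16) for HINT2 and -2.01 (SE 0.24) for ENDOG. The latter 2 correspond to 2.80-fold and 4.03-fold lower levels and were numbers 13 and 5 among all probe sets by size of decrease. Every perirenal array at 28 days was below every perirenal array at 7 days for HINT2 and ENDOG, as for 2.54% of probe sets, and not for CSMD2. As the arrays of 7 days chose the genes, these differences carry no test. With ENDOG at the bottom of the scale at 28 days, the size of its difference is uncertain.

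HINT2 was lower at 28 days in every depot. The difference in sternal fat, -1.46 (SE 0.16), was about that in perirenal fat, and it was -0.79 (SE 0.16) in epicardial, -0.58 (SE 0.16) in omental and -0.36 (SE 0.17) in subcutaneous fat. Sternal and epicardial arrays did not overlap between the ages, as was the case for 2.2% and 0.73% of probe sets. For ENDOG the difference was -1.12 (SE 0.24) in epicardial fat, -0.40 (SE 0.24) in sternal fat and -0.09 and -0.12 (SE 0.24 and 0.26) in omental and subcutaneous fat, where the level was low at both ages. CSMD2 had its largest difference in epicardial fat, 0.61 (SE 0.22), from 2.77 ± 0.25 to 3.38 ± 0.49 (SD, n = 5 each), and stood within 1 SE of its 7-day level in omental, perirenal, sternal and subcutaneous fat (0.09, -0.20, 0.02 and 0.18).

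**Figure D3:**
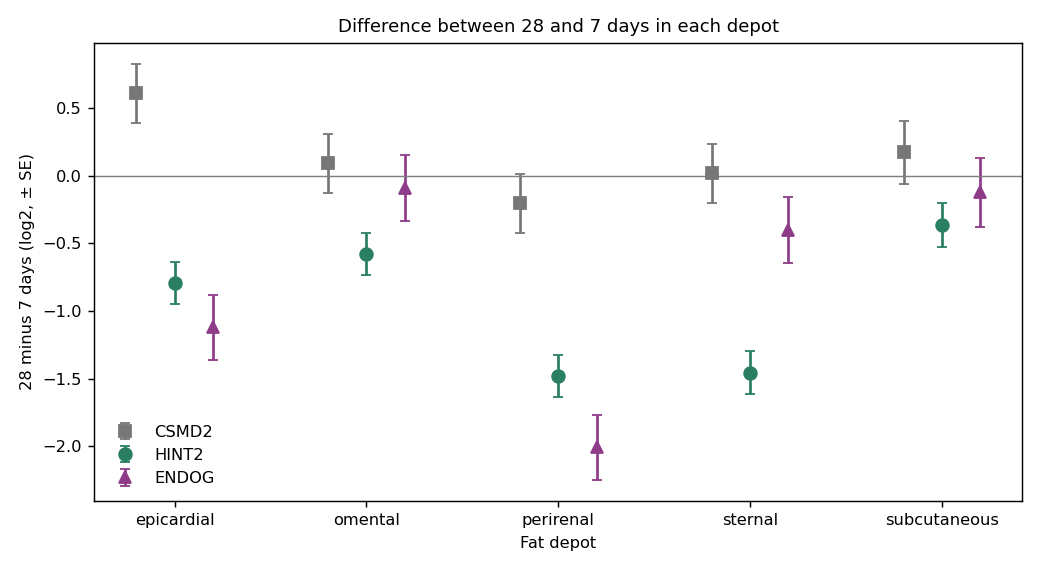
Difference between 28 and 7 days (y axis, log2, ± SE of the fit of all 10 groups) in each fat depot (x axis) for CSMD2 (squares), HINT2 (circles) and ENDOG (triangles). HINT2 lies below 0 in all depots, with -1.48 in perirenal and -1.46 in sternal fat, ENDOG reaches -2.01 in perirenal and -1.12 in epicardial fat, and CSMD2 is above 0 by more than its SE only in epicardial fat (0.61).

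UCP1 gave the brown character of the depots in these samples. It read 5.51 to 8.22 on the perirenal arrays at 7 days (6.29 ± 1.12, SD, n = 5), 3.52 to 5.51 in sternal, 3.34 to 5.32 in epicardial, 2.91 to 5.13 in omental and 2.49 to 2.99 in subcutaneous fat. At 28 days all 25 arrays lay between 2.87 and 2.999. Over the 10 group means, Pearson's r with UCP1 was 0.93 for HINT2, 0.82 for ENDOG and 0.46 for CSMD2, as a description of 10 points that share arrays and include the means that chose the genes. Spearman's rho was 0.78, 0.43 and 0.33. Between the members Pearson's r was 0.82 for HINT2 and ENDOG, 0.49 for CSMD2 and ENDOG and 0.38 for CSMD2 and HINT2, with rho of 0.73, 0.16 and 0.055. Within the 25 arrays of 28 days r was 0.55 for CSMD2 and HINT2, 0.51 for HINT2 and ENDOG and 0.27 for CSMD2 and ENDOG. At 7 days perirenal replicate A had the highest UCP1 (8.22), HINT2 (9.59) and ENDOG (5.50) of the 5 perirenal arrays, and replicate C the highest CSMD2.

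Other genes of the members' families were mostly without a called difference in perirenal fat, and many lay near the lowest value of the table. In the histidine triad family 4 others were measured, HINT1 and HINT3, APTX, which repairs stalled DNA ligation ends, and GALT, of galactose metabolism. None was called by limma against the other depots at 7 days (2 at an unadjusted p under 0.05, median 0.03 against 0.02 over all probe sets) or at 28 days (2 unadjusted, median 0.11 against 0.00). Between the ages HINT1 fell by 0.81 in perirenal fat (SE 0.15, limma adjusted p = 0.000156), and the differences of HINT3, APTX and GALT were -0.13, 0.14 and 0.11. In this comparison limma called 3.09% of probe sets lower and 6.23% of them higher. Of the family of CSMD2, CSMD1, CSMD3, SEZ6 and SEZ6L2 were measured, and none of the 4 was called by limma in any of the 3 comparisons, with 0 at an unadjusted p under 0.05. Their differences from the other depots at 28 days were -0.06, -0.04, -0.02 and 0.11. Perirenal means at 7 and 28 days were 2.55 and 2.52 for CSMD1, 2.50 and 2.50 for CSMD3, and 2.63 and 2.53 for SEZ6. HINT3, APTX and GALT had perirenal means of 2.55 to 2.88. With a lowest value of 2.49 in the table, nothing is read from a lack of difference in these genes. Among 18 other proteins with CUB or sushi domains, SVEP1, an adhesion protein of the extracellular matrix, was called higher in perirenal fat at 28 days (0.57, SE 0.12, limma adjusted p = 0.00628) and rose by 0.86 with age (SE 0.12, limma adjusted p = 1.44e-06). SVEP1 was the only one of the 18 called in these 2 comparisons, where 2.87% and 6.23% of all probe sets were called higher. None of the 18 was called at 7 days by limma (2 at an unadjusted p under 0.05).

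The mitochondrial setting of HINT2 and ENDOG was read from 54 subunits of the respiratory chain and ATP synthase. At 7 days the median difference was 0.20 against 0.02 over all probe sets, of which 4.58% were called higher and 0.535% lower. Of the 54 subunits, 12 were higher in perirenal fat and none lower. UQCRC1 of complex III (1.06, SE 0.21), NDUFS7 (0.83, SE 0.14) and NDUFV1 (0.82, SE 0.23) of complex I and COX4I1 of complex IV (0.55, SE 0.11) had the largest differences among them, with limma adjusted p of 0.00447, 0.00128, 0.0421 and 0.00526. At 28 days none of the 54 was called by limma (4 at an unadjusted p under 0.05, median 0.06 against 0.00). Within perirenal fat 29 fell between the ages and none rose, with a median difference of -0.44 against 0.01. UQCRC1 fell by 1.83 (SE 0.24, limma adjusted p = 1.00e-06), NDUFV1 fell by 1.38 (SE 0.24, limma adjusted p = 7.21e-05), ATP5F1C of the ATP synthase fell by 1.26 (SE 0.17, limma adjusted p = 1.53e-06) and COX5A of complex IV fell by 1.23 (SE 0.24, limma adjusted p = 0.000265). The 2 mitochondrial members also had lower values at 28 days in perirenal fat. The list was not tested between the ages in the other depots. In sternal fat HINT2 differed by -1.46 and ENDOG by -0.40. Sternal means of the subunits ATP5MG, NDUFS7 and NDUFS3 were 11.75, 4.30 and 4.68 at 7 days and 10.32, 3.87 and 4.15 at 28 days. These subunits were picked for their likeness to HINT2 or ENDOG, as described below. The count of 12 at 7 days was 6 after quantile normalization, and 7 without perirenal replicate A or without C.

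Of 13 genes of brown adipocyte thermogenesis, 4 were higher in perirenal fat at 7 days, where 4.58% of all probe sets were. The same 4 fell with age, where 3.09% of all probe sets were called lower. These were UCP1 itself (2.57, SE 0.41), its coactivators PPARGC1A (1.59, SE 0.24) and PPARGC1B (0.46, SE 0.13), and the nuclear receptor ESRRA (0.74, SE 0.14), with limma adjusted p of 0.000606, 0.000446, 0.0451 and 0.00265. With age UCP1 fell by 3.37 (limma adjusted p = 1.14e-08), PPARGC1A fell by 2.44 (limma adjusted p = 1.24e-06), ESRRA fell by 1.11 (limma adjusted p = 1.68e-07) and PPARGC1B fell by 0.99 (limma adjusted p = 0.00685). Among the 9 not called at 7 days, ESRRG had the largest difference and was lower in perirenal fat (-1.06, SE 0.43, limma adjusted p = 0.177). The mean over the list at 7 days was highest in epicardial fat (4.12) and next in perirenal fat (3.93). Group means above 4 numbered 7 in epicardial and 4 in perirenal fat. ESRRG was the highest gene of the list in epicardial fat (7.32), while UCP1 had a mean of 4.04 there against 6.29 in perirenal fat. The epicardial arrays also carried heart muscle transcripts, and the part of these in the mean of the list was not tested. At 28 days none of the 13 was called by limma (2 at an unadjusted p under 0.05). The largest differences at 28 days were those of ESRRG (-0.99, SE 0.42) and ZIC1 (-0.54, SE 0.25), both lower in perirenal fat. The median of the list was 0.06 at 7 days, 0.01 at 28 days and -0.02 between the ages, against 0.02, 0.00 and 0.01 over all probe sets.

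Other genes of ENDOG's own settings, mitochondrial apoptosis and mitochondrial DNA, were read next. Of 19 genes of mitochondrial apoptosis, 3 were higher in perirenal fat at 7 days, where 4.58% of all probe sets were. HTRA2, a protease released from mitochondria, differed by 0.64 (SE 0.18, limma adjusted p = 0.0401). AIFM2, an oxidoreductase, differed by 0.40 (SE 0.10, limma adjusted p = 0.0183). MCL1, which protects against cell death, differed by 0.35 (SE 0.05, limma adjusted p = 0.000413). The perirenal means of AIFM2 and MCL1 were low, 3.11 and 3.34. The count was 1 after quantile normalization, and the median was 0.23 against 0.02. At 28 days BCL2, another protective gene, was the only one called (0.54, SE 0.11, limma adjusted p = 0.00513, median 0.07). At that age 2.87% of all probe sets were called higher in perirenal fat and 0.487% lower. Between the ages 4 fell, the outer membrane channels VDAC2 (by 1.00, SE 0.22) and VDAC3 (by 0.78, SE 0.19), AIFM1 (by 0.89, SE 0.22), which serves respiration as well as cell death, and MCL1 (by 0.26, SE 0.08), with limma adjusted p of 0.00127, 0.00472, 0.00454 and 0.0302. The median was -0.03, and 3.09% of all probe sets were called lower with age. Of 18 genes that maintain or transcribe mitochondrial DNA, none was called by limma at 7 days (2 at an unadjusted p under 0.05, median -0.01). POLG2, the accessory subunit of the mitochondrial DNA polymerase, was higher at 28 days (0.33, SE 0.06, limma adjusted p = 0.00372), at a low perirenal mean of 3.40. POLG2 rose with age by 0.41 (SE 0.08, limma adjusted p = 0.000390). SUCLG1, a subunit of succinyl-CoA ligase, fell by 0.60 (SE 0.16, limma adjusted p = 0.00919). Over all probe sets 2.87% were called higher at 28 days, and 6.23% rose and 3.09% fell with age.

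**Figure D4:**
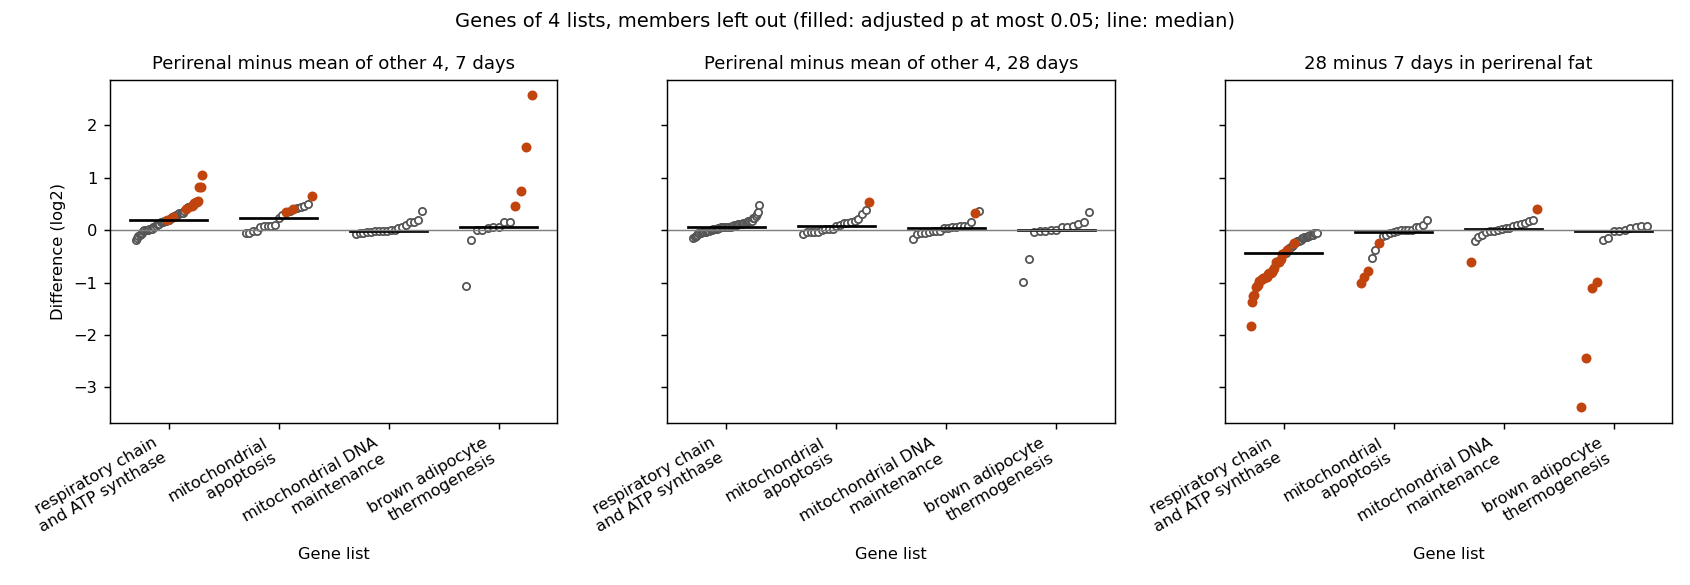
Differences (y axis, log2) of the genes of 4 lists (x axis) in 3 comparisons, HINT2 and ENDOG left out; each point is 1 gene, filled where the limma adjusted p is at most 0.05, and the line is the list's median. At 7 days 12 of 54 respiratory genes are filled above 0, at 28 days none, and between the ages 29 are filled below 0 with a median of -0.44.

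The genes most like each member were found by Pearson's r over the 10 group means. Among 932 other genes whose group means spanned at least 1, the 5 closest to ENDOG were TUFM, a mitochondrial translation factor (Pearson's r = 0.99), the complex I subunits NDUFS7 (0.97) and NDUFS3 (0.94), TMEM223 (0.95) and ESRRA (0.94). HINT2 was closest to ACADVL, which begins the oxidation of long fatty acids (0.97), USP2, a ubiquitin protease (0.97), IDH3G of the tricarboxylic acid cycle (0.96), the ATP synthase subunit ATP5MG (0.95) and VDAC2 (0.95). For CSMD2 the closest were KALRN, an exchange factor for small GTPases (0.82), RAB1B of membrane traffic (0.81), ZNF548 (0.77), RNF44 (0.76) and KCND3, a potassium channel (0.75). These correlations are descriptions over 10 group means of shared arrays, which include the perirenal means at 7 days that chose the members. By Spearman's rho only 4 of the 15 genes, KALRN (0.93) and RAB1B (0.89) for CSMD2, ATP5MG (0.96) for HINT2 and NDUFS3 (0.94) for ENDOG, stayed among the 5 closest, and rho of TUFM with ENDOG was 0.67.

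**Figure D5:**
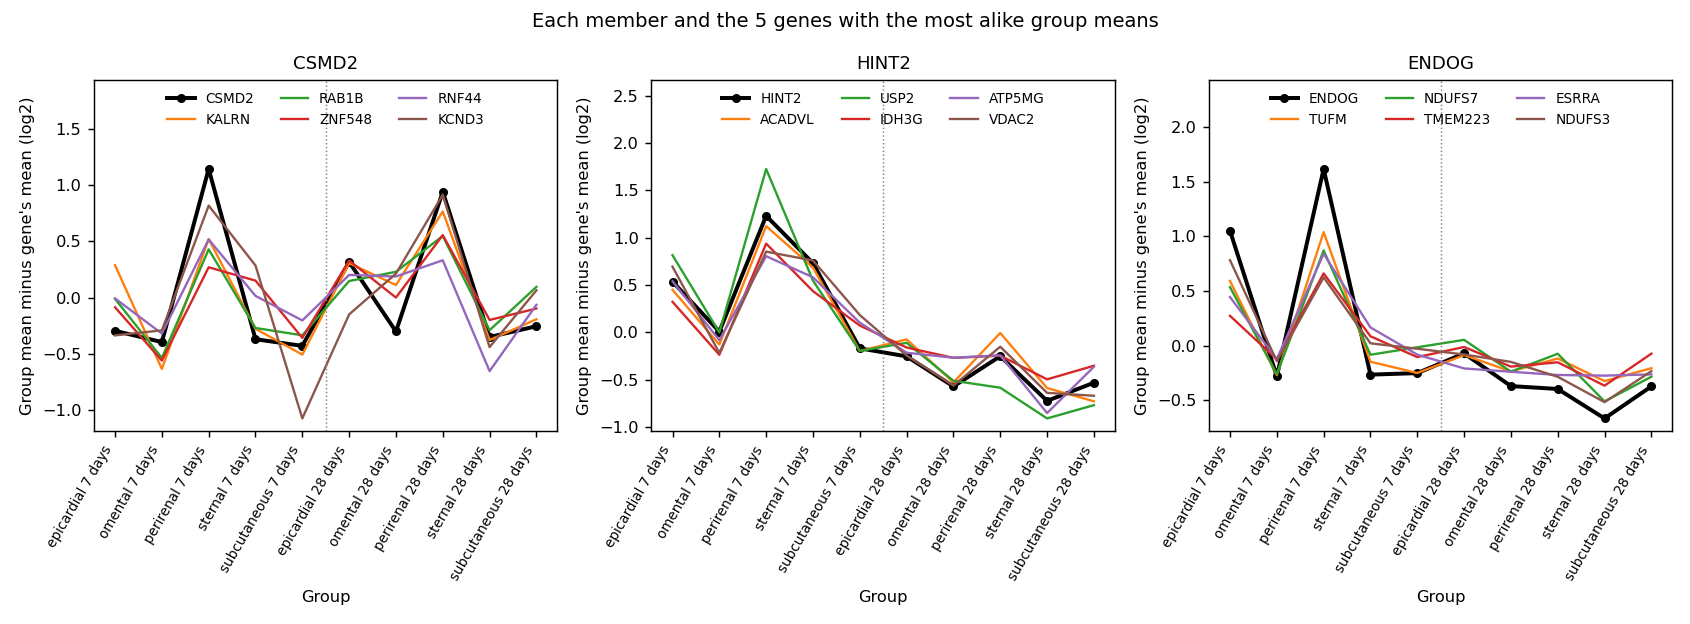
Group means (y axis, log2, each gene centred on its mean over the 10 groups) of each member (black) and the 5 genes with the highest Pearson's r to it (colours) over the groups of depot and age (x axis; the dotted line parts 7 from 28 days). The CSMD2 panel has peaks in perirenal fat at both ages, while the curves of HINT2 (r of 0.95 to 0.97) and ENDOG (0.94 to 0.99) are highest in perirenal fat at 7 days.

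Markers of tissues next to perirenal fat were read for the same arrays. Of 7 kidney markers, none had a perirenal group mean above 4. The means per array over the list were 2.72 to 2.83 in perirenal fat at 7 days and 2.76 to 2.82 at 28 days. In the other depots they were 2.67 to 2.93 and 2.67 to 2.90. PAX8, a transcription factor of kidney and thyroid, was called higher at 28 days (0.25, SE 0.05, limma adjusted p = 0.00797). PAX8 also rose with age (0.24, SE 0.06, limma adjusted p = 0.00230), at low perirenal means of 2.73 and 2.97. The kidney count at 28 days stayed the same in 5 of 7 alternatives and with each array left out. For the kidney and adrenal calls, 4.58% and 2.87% of all probe sets were higher at 7 and 28 days. With age 6.23% of all probe sets rose and 3.09% fell. Of 5 adrenal markers, FDX1, an electron carrier of steroid synthesis that other cells also use, was higher at 7 days (0.28, SE 0.08, limma adjusted p = 0.0392) and at 28 days (0.10, SE 0.03, limma adjusted p = 0.0467) and fell with age by 0.29 (SE 0.07, limma adjusted p = 0.00563). CYP11B2, DBH, PNMT and CHGA were not called. The adrenal call was lost on leaving out any of 9 arrays at 7 days and any of 19 at 28 days, and after quantile normalization at both ages. Means per array over the list were 2.78 to 3.001 in perirenal fat at 7 days, the depot with the highest group mean (2.87 against 2.60 to 2.76), and 2.70 to 2.80 at 28 days (group mean 2.76 against 2.60 to 2.77). Of 13 neural markers none was called by limma in the 3 comparisons (1, 1 and 0 at an unadjusted p under 0.05). TUBB3 alone had a perirenal mean above 4 (10.7 at 7 days and 10.5 at 28 days). It was also the only such marker in omental, sternal and subcutaneous fat, while epicardial fat had 2 at each age. The part of these tissues in the members' levels was not tested.

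Among the remaining lists, 3 of 7 heart muscle markers were lower in perirenal fat at 7 days by limma, where 0.535% of all probe sets were. No heart muscle marker was called at 28 days (4 at an unadjusted p under 0.05) or between the ages. For the calls below, 4.58% and 2.87% of all probe sets were higher at 7 and 28 days, and 6.23% rose with age. None of 10 skeletal muscle, 4 mesothelium or 4 macrophage markers was called by limma in the 3 comparisons (at most 1 of a list at an unadjusted p under 0.05). Of 7 endothelium markers, VWF was higher at 7 days (0.37, SE 0.07, limma adjusted p = 0.00526) and none at 28 days (3 at an unadjusted p under 0.05). PECAM1 and TIE1 rose with age by 0.21 and 0.26 (limma adjusted p = 0.0201 and 0.0314). Their perirenal means were low, PECAM1 going from 2.49, the lowest value of the table, to 2.70, and TIE1 from 2.75 to 3.01. The count with age fell to 1 on leaving out any of 7 arrays and was 0 to 2 in the alternatives. Of the adipocyte markers, LIPE was higher (0.37, SE 0.11, limma adjusted p = 0.0467) and SCD lower at 7 days (-1.89, SE 0.48, limma adjusted p = 0.0251), PPARG (0.47, SE 0.08, limma adjusted p = 0.00119) and CD36 (0.66, SE 0.16, limma adjusted p = 0.0227) were higher at 28 days, and PPARG rose with age by 0.44 (SE 0.10, limma adjusted p = 0.00149). The call of LIPE was lost on leaving out any of 21 arrays. In the sheep gene table (RefSeq, ARS-UI_Ramb_v3.0) the members lie on 3 different chromosomes. Of the 3 protein-coding genes on either side of each (18 in all) 5 were measured. ZSCAN20 and KCNJ13 beside CSMD2, FAM221B and SPAG8 beside HINT2 and ZER1 beside ENDOG had differences of -0.02 to 0.08 at 28 days, none called by limma (lowest adjusted p = 0.782).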

How the data were processed

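Expression was measured on 49 arrays of adipose RNA from lambs, hybridised to Affymetrix human U133 Plus 2 arrays. The authors deposited log2 values after background correction, normalization and summary with GCRMA (affy package; tool versions: not given in the sources used), for the 10273 probe sets that their filter kept. Human probes read sheep RNA only where the sequences match closely, and 82.7% of the deposited log2 values lay below 4. Raw scans were not analysed here, and the number of arrays limits the precision.

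Groups came from the depot and age in the labels. Within each age, limma 3.58.1 in R 4.3.3 was fitted to the 5 depots (lmFit, contrasts.fit, eBayes), and age changes came from 1 fit of all 10 groups. That fit was unpaired, because the labels give no match of twins between the ages. The paper used more tissue for RNA at 28 than at 7 days, so age and sample handling cannot be told apart. P-values were two-sided and adjusted over all probe sets by Benjamini-Hochberg, called at 0.05 or below. All 10 pairs of depots were compared at 28 days. The fits were tested on simulated data. The members and gene lists were chosen with earlier results of these data known. Named genes were the members, the 5 genes most like each over the group means, up to 4 called genes of a list with the largest differences, and small lists whole. The neighbouring genes were named outside that rule, after their values were seen. Alternatives were a replicate block, quantile normalization, a filter on the mean, other fits, leaving out sternal and subcutaneous arrays with muscle transcripts, and each array left out in turn.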

Additional observations from a re-analysis of the deposited data

Results flagged for a closer look

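In 11 of 30 sets of arrays (3 genes in 10 groups of depot and age), 1 array stood far from the rest by the size of its gap relative to the group's range, where chance alone would give about 1 in 20 groups. For CSMD2 the arrays were the highest of epicardial fat at 7 days (replicate C, 3.22), omental fat at 7 days (E, 2.77), omental fat at 28 days (M, 3.20), sternal fat at 28 days (I, 2.95) and subcutaneous fat at 28 days (H, 3.38). For HINT2 they were the highest of omental fat at 7 days (E, 8.46) and the lowest of epicardial fat at 28 days (N, 7.34). For ENDOG they were the lowest of omental fat at 7 days (C, 3.01), the lowest of sternal fat at 7 days (G, 3.09), the highest of subcutaneous fat at 7 days (F, 3.16) and the lowest of omental fat at 28 days (I, 2.73). In the groups of CSMD2 and ENDOG most other arrays lay at or close to the repeated low value, where a small step is a large share of the range. No perirenal group was among the 11.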

How the results depend on the processing

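CSMD2 at 28 days exceeded the mean of the other depots in every alternative that gave a value (1.01 to 1.09) and with each array left out (0.97 to 1.23), and passed the test in all of them, while HINT2 (0.22 to 0.36 with each array left out) and ENDOG (-0.061 to 0.032, above 0 without epicardial J or perirenal N) passed in none. Without the muscle-marked arrays CSMD2 against subcutaneous fat was 1.09, HINT2 against sternal fat 0.33, and ENDOG against subcutaneous fat turned to 0.054. With only the 2 depots in the fit the first was 1.20 (limma adjusted p = 0.0637) and the second 0.47 (limma adjusted p = 0.0627), and after quantile normalization the second was 0.23. With each array left out, CSMD2 against epicardial fat ran from 0.51 to 0.83, HINT2 against sternal fat from 0.39 to 0.56 and against epicardial fat from -0.085 to 0.089, and ENDOG from -0.099 to 0.032 against omental and from -0.090 to 0.035 against subcutaneous fat. The cause was not tested. The share of all probe sets higher in perirenal fat at 28 days was 2.87% and became 1.41% with the replicate block and 1.49% without the muscle-marked arrays. It was 1.88% to 3.09% with each array left out (1.88% without perirenal K, 1.89% without M). With the filter on the mean (4 or more), 1752 probe sets were in the fit and 168 were called higher. That is 1.64% of all 10273, and a share above 2.87% of the 1752. The lower share, 0.487%, became 0.243% with the block and 0.292% to 0.555% with each array left out (0.292% without perirenal K). Respiratory subunits higher at 7 days numbered 6 after quantile normalization, 7 without the muscle-marked arrays and 7 to 14 with each array left out, and at 28 days 1 with that filter, 1 in the fit of all 10 groups and 0 to 1 with each array left out (1 without subcutaneous I or M). CSMD2 and ENDOG, with means of 3.07 and 3.40, are not among the 1752 probe sets that the filter kept.

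The replicate numbers were neither shown nor excluded to pair the samples. Deviations of same-numbered arrays had correlations of -0.26 to 0.16 at 7 days and -0.08 to 0.32 at 28 days. Their medians were 0.05 and 0.06, against -0.01 at both ages for arrays with different numbers. With the replicate block CSMD2 exceeded the other depots by 1.01 (limma adjusted p = 0.00573), HINT2 by 0.37 (limma adjusted p = 0.261), and ENDOG differed by -0.03.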
